A study of Homo sapiens with 12 samples.

Results

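The 2 kinds of A549 cells were compared in the state each reached under high-dose AA, the agent that the sample titles call vitamin C (ascorbate). The comparison used the 6 libraries whose labels give an AA treatment, of 12 in all: 3 of LKB1-deficient cells, titled con, and 3 of cells labelled wild type for LKB1, which the series design calls intact. A549 is an established human lung adenocarcinoma line, and LKB1 is the kinase that STK11 encodes. The other 6 libraries came from the same 2 kinds of cells pretreated with phosphate-buffered saline (PBS), and they serve as the background measured in the same way. Poly(A) RNA of each sample was sequenced, and every library comes from the same parental line with no other allele or agent named. The parental line is known for an inactivating STK11 mutation, the labels do not say how either kind of cell was made or whether it is 1 clone, and no dose or exposure time was given.

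LKB1 activates AMPK and the AMPK-related kinases, which slow biosynthesis and growth when energy runs low, and it is frequently lost in lung adenocarcinoma. At pharmacological levels ascorbate oxidises in the medium and yields hydrogen peroxide, and its oxidised form enters cells through glucose transporters. The title of the study names pyroptosis, a lytic death in which gasdermins open pores in the plasma membrane, so its genes were described beside those of the stress responses.

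The AA libraries held 17711033 to 20306129 estimated counts each, and all 12 held 16055534 to 20306129. Of 20323 genes, 12718 passed the filter on low counts. STK11 (ENSG00000118046, chromosome 19, 1177558 to 1228435 on GRCh38, plus strand, protein-coding) checked the labels. Its level was 5.61, 7.34 and 6.97 CPM (counts scaled to a common library size and corrected for composition) in the deficient AA libraries and 24.3, 28.2 and 25.6 CPM in the intact ones. No deficient library came near an intact one, and the log2 difference was -1.98 (SE 0.103, edgeR quasi-likelihood test with Benjamini-Hochberg adjustment, adjusted p = 5.29e-13), against -2.08 under PBS. Throughout, a difference is deficient minus intact on the log2 scale, and a gene was called at an adjusted p under 0.05. Nothing in the labels ties the 3 libraries of a group to separate cultures. The p-values therefore reflect the spread among these libraries alone, and that spread may be technical.

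The states lay apart under AA and close together under PBS. On the first principal component of log2 CPM, which held 60.8% of the variance, AA separated from PBS in both kinds of cells. On the second, which held 15.2%, the deficient AA libraries lay at 22.8 to 24.0 and the intact AA libraries at -28.8 to -28.5, while all PBS libraries lay between 0.185 and 5.27. The root mean square log2 distance between a deficient and an intact AA library had a median of 0.549 (range 0.537 to 0.558 over 9 pairs). Between replicates it was 0.326 in deficient and 0.313 in intact cells under AA (medians of 3 pairs). Under PBS the distance between genotypes, 0.352, lay between that within the deficient group, 0.366, and that within the intact group, 0.326.

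**Figure D1:**
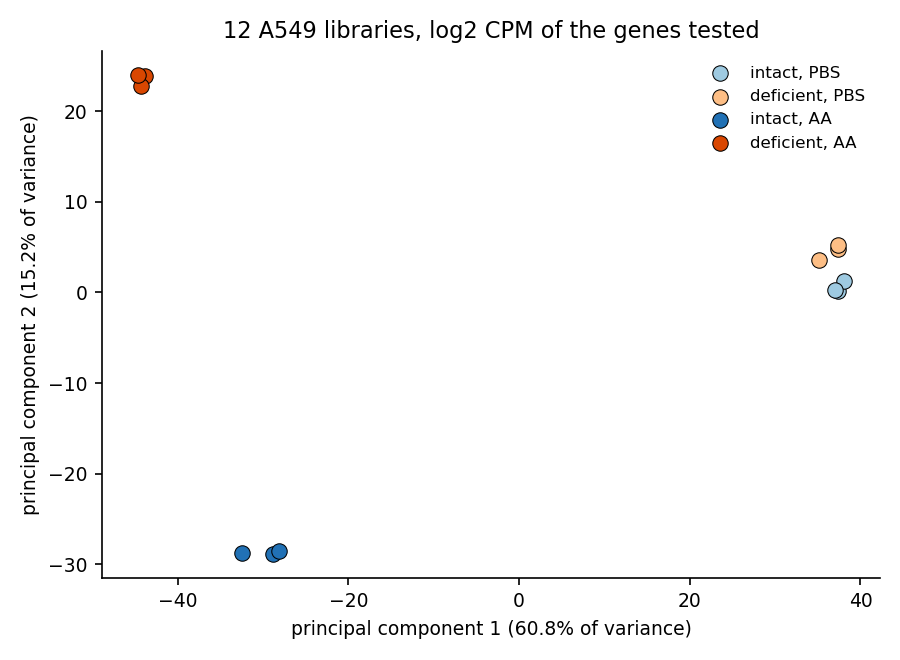
First and second principal components of log2 CPM over 12718 genes for the 12 libraries, coloured by genotype and treatment, with no scaling of genes. The 3 deficient AA libraries lie at 22.8 to 24.0 on the second component and the 3 intact AA libraries at -28.8 to -28.5, with the 6 PBS libraries between them.

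Under AA 7501 of 12718 genes were called between the genotypes (59.0%), 3653 higher in deficient cells (28.7%) and 3848 lower (30.3%). A list with about 3 in 10 members on 1 side therefore lies at the background. Most called differences were small: 5001 of the 7501 (66.7%) were under 0.5 in size, and the median size over all genes was 0.259. A difference of at least 1 was called in 590 genes (4.64%), 279 higher and 311 lower, and one of at least 2 in 33 each way. The 3 libraries of each AA group did not overlap in 8039 genes (63.2%). Of the called genes 48.7% were higher in deficient cells, and on the deposited FPKM values, tested with limma, 60.3% were.

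Under PBS 35 genes were called between the same cells (0.275%), 7 higher and 28 lower in deficient cells, and the groups did not overlap in 1710 genes (13.4%). The difference under AA departed from that under PBS in 5673 genes (44.6%), among them 5486 of the 7501 called under AA and 413 of the 590 with a difference of at least 1. Of the genes called under both treatments, 22 lay on the same side, 5 higher and 17 lower, and 4 on opposite sides. The differences under AA and under PBS, which share no library, correlated across genes with Pearson's r of 0.13 and Spearman's rho of 0.11, and genes are not independent replicates.

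**Figure D2:**
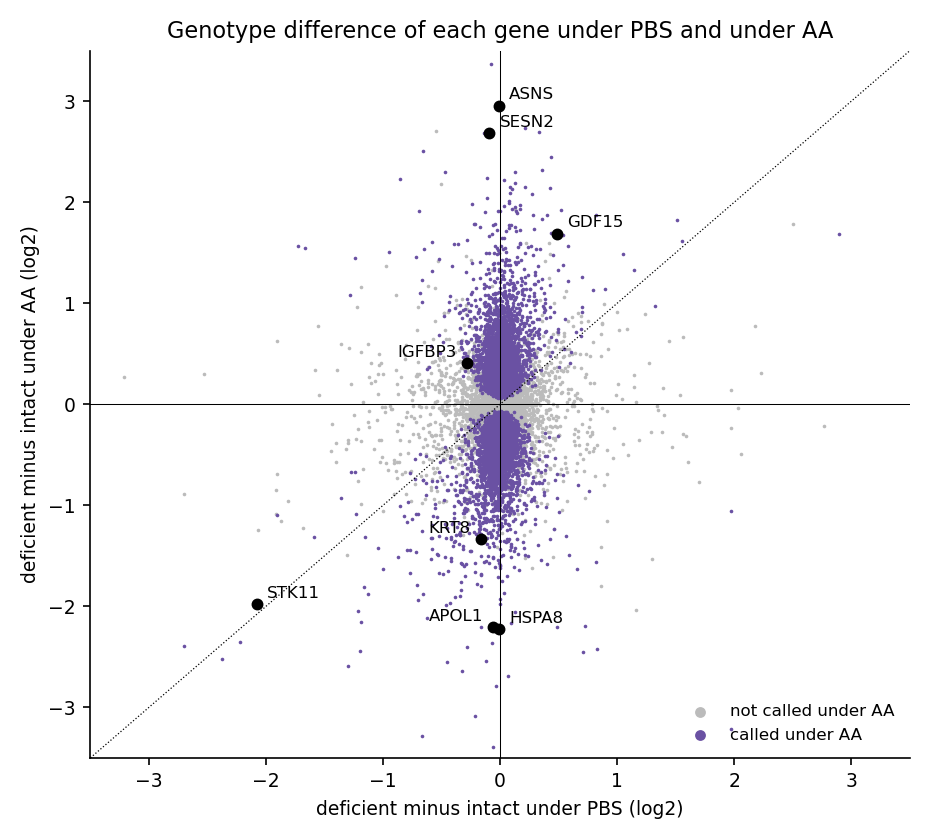
Deficient minus intact log2 difference under PBS (horizontal) and under AA (vertical) for each gene, with genes called under AA in purple, a dotted line of equal difference and 8 genes labelled. STK11 lies near that line, while ASNS, at 2.96 under AA and -0.01 under PBS, and HSPA8, at -2.23 and -0.01, lie on the vertical axis. The axes end at 3.5 either way and leave out 28 genes.

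The 279 genes higher by at least 1 stood above the PBS state mainly in deficient cells. In 214 of them the deficient AA mean lay farther from the mean of the PBS libraries than the intact AA mean did, and the median shifts were 1.26 and -0.14 on the log2 scale. The 311 lower genes were split more evenly, with the deficient AA mean farther from PBS in 172 and the intact one in 139, and median shifts of -0.77 and 0.54. These shifts describe genes that were chosen by the same AA values and carry no test.

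The integrated stress response stood out on the high side in deficient cells. In this response kinases that sense amino acid shortage, unfolded protein or haem loss block translation initiation, and the transcription factor ATF4 then raises genes for amino acid synthesis, uptake and tRNA charging. Of 39 tested members of the list, 37 were higher in deficient cells and 2 lower, with a median difference of 1.34, against a median of -0.02 over all genes tested. The list median under PBS was 0.02. All 39 differences departed from that under PBS, beside 44.6% of all genes tested. A difference of at least 1 was called in 25 members, beside 4.64% of all genes tested. In RNA from whole cultures, a lower level in each cell and fewer cells that carry the transcript cannot be told apart, here and in every comparison that follows.

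Enzymes of amino acid synthesis were among the higher members. ASNS, which makes asparagine, was at 374, 358 and 368 CPM in deficient and 42.7, 51.8 and 47.3 CPM in intact AA libraries, beside means of 57.8 and 58.3 CPM under PBS. The intact AA libraries thus lay below the PBS means, and the deficient AA mean was 7.76-fold above the intact AA mean (log2 2.96, SE 0.0550, edgeR adjusted p = 3.24e-20). PSAT1, of serine synthesis, was at 546.2, 530.5 and 547.4 against 191.4, 189.2 and 191.0 CPM, a 2.84-fold difference (log2 1.51, SE 0.0288, edgeR adjusted p = 3.85e-20). PSPH and PHGDH, the other serine enzymes, differed by 1.97 and 0.83, and the mitochondrial folate enzymes MTHFD2 and SHMT2 by 1.07 and 0.86. These 4, and the factors named next other than DDIT3, were chosen after their values were seen. Among the regulators DDIT3, the CHOP factor, stood at 31.0, 32.1 and 32.7 CPM in deficient and 6.54, 8.23 and 6.72 CPM in intact AA libraries (log2 2.16, SE 0.0919, edgeR adjusted p = 1.61e-14). CEBPG, a partner of ATF4, differed by 2.01 and TRIB3, a pseudokinase that CHOP induces, by 1.89. ATF4 itself, which is controlled largely at translation, differed by 0.49 (329.8 against 235.4 CPM).

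Other outputs of the same list were higher as well. CHAC1, which degrades glutathione and was named after its values were seen, had the largest difference in the list, 3.60, at a low level (8.15 against 0.660 CPM). SESN2, which restrains mTORC1 when leucine is short, was at 38.2, 43.1 and 41.0 CPM in deficient and 6.16, 6.45 and 6.36 CPM in intact AA libraries, a 6.44-fold difference (log2 2.69, SE 0.0915, edgeR adjusted p = 3.67e-16). STC2, a secreted stanniocalcin, was at 377, 370.5 and 357 against 84.4, 76.3 and 81.2 CPM (log2 2.19, SE 0.0433, edgeR adjusted p = 4.44e-20). For both genes the intact AA values were close to those under PBS, 7.05 CPM for SESN2 and 91.6 CPM for STC2 in intact cells. The 2 members on the low side were SLC38A2, a glutamine and alanine transporter at 2474 ± 76.5 against 2722 ± 63.1 CPM (SD, n = 3 each), and ATF5, at 7.11 ± 0.612 against 8.98 ± 0.619 CPM (SD, n = 3 each), a call lost on FPKM values without a filter. The PBS means in deficient and intact cells were 763 and 745 CPM for SLC38A2, below both AA groups. For ATF5 they were 22.4 and 21.8 CPM, above both. Intact AA cells were therefore not near the PBS level for every member.

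The start regions of the 4 members with the smallest p, ASNS, PSAT1, CARS1 and STC2, were read from RefSeq (GRCh38.p14, 250 bases before to 50 after the gene start) and searched on both strands for TGATGNAA, the composite site that C/EBP and ATF factors share. It was found in ASNS (chr7:97872359-97872658, minus strand) at position -68 from the start, and in CARS1 (chr11:3057374-3057673, minus strand), on the opposite strand across the start. They are shown because members of this list moved together, with the match in capitals. In ASNS the capitals also hold the overlapping GAANNTTC described below for the chaperones.
ASNS: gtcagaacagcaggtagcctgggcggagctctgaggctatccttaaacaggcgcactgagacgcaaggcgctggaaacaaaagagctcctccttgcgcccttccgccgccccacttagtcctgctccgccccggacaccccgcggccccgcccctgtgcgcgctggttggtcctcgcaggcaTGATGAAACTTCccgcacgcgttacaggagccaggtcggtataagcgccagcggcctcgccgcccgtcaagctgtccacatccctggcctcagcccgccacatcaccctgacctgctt
CARS1: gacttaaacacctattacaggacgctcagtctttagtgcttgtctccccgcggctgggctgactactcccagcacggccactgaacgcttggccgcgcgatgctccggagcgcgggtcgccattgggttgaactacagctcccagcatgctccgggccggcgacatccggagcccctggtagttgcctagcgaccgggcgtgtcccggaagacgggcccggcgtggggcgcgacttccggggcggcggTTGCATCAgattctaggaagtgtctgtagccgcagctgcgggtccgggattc
The motif was in 8 of the 33 promoters of this list that the table holds (24.2%), in 1.68% of 10187 promoters of the genes tested and in 3.62% of 35116 promoters of the whole table. A match is a run of letters and not a measured binding site. The list gathers genes by their known part in the ATF4-CHOP response, so this share describes the list and is no test of its expression.

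Charging of tRNA and amino acid uptake overlapped this list. Of 20 cytosolic aminoacyl-tRNA synthetases 15 were higher and 3 lower in deficient cells (median 0.36). CARS1, the cysteinyl enzyme, was at 328, 315 and 321 CPM in deficient and 90.9, 96.2 and 92.7 CPM in intact AA libraries (log2 1.78, SE 0.0350, edgeR adjusted p = 4.44e-20). GARS1, SARS1, AARS1 and TARS1, for glycine, serine, alanine and threonine, differed by 1.43, 1.41, 1.35 and 0.88. The lower members were QARS1 (-0.56), RARS1 (-0.27) and HARS1 (-0.24), for glutamine, arginine and histidine, so the synthetases did not move as a block. Of 21 amino acid transporters 11 were higher and 6 lower (median 0.34). The higher members SLC7A1, SLC7A5, SLC7A11, SLC3A2, SLC1A4, SLC1A5 and SLC6A9 also belong to the integrated stress response list and are counted in both. Outside that list SLC1A1, SLC38A1, SLC38A9 and SLC43A1 were higher. SLC7A6, SLC1A3, SLC6A6, SLC36A1 and SLC36A4 were lower there, so the transporters outside it did not lean to the high side. SLC7A11, which exchanges glutamate for cystine and so feeds glutathione synthesis, was at 303, 296 and 291 against 114, 117 and 109 CPM (log2 1.39, SE 0.0348, edgeR adjusted p = 2.31e-18). Its PBS means were 247.4 CPM in deficient and 224.6 CPM in intact cells, so the intact AA libraries lay below every other group. SLC3A2, the heavy chain that SLC7A11 pairs with, differed by 1.06 and SLC1A5, a glutamine carrier, by 1.24, while SLC1A3, a glutamate carrier, was lower by -1.76.

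**Figure D3:**
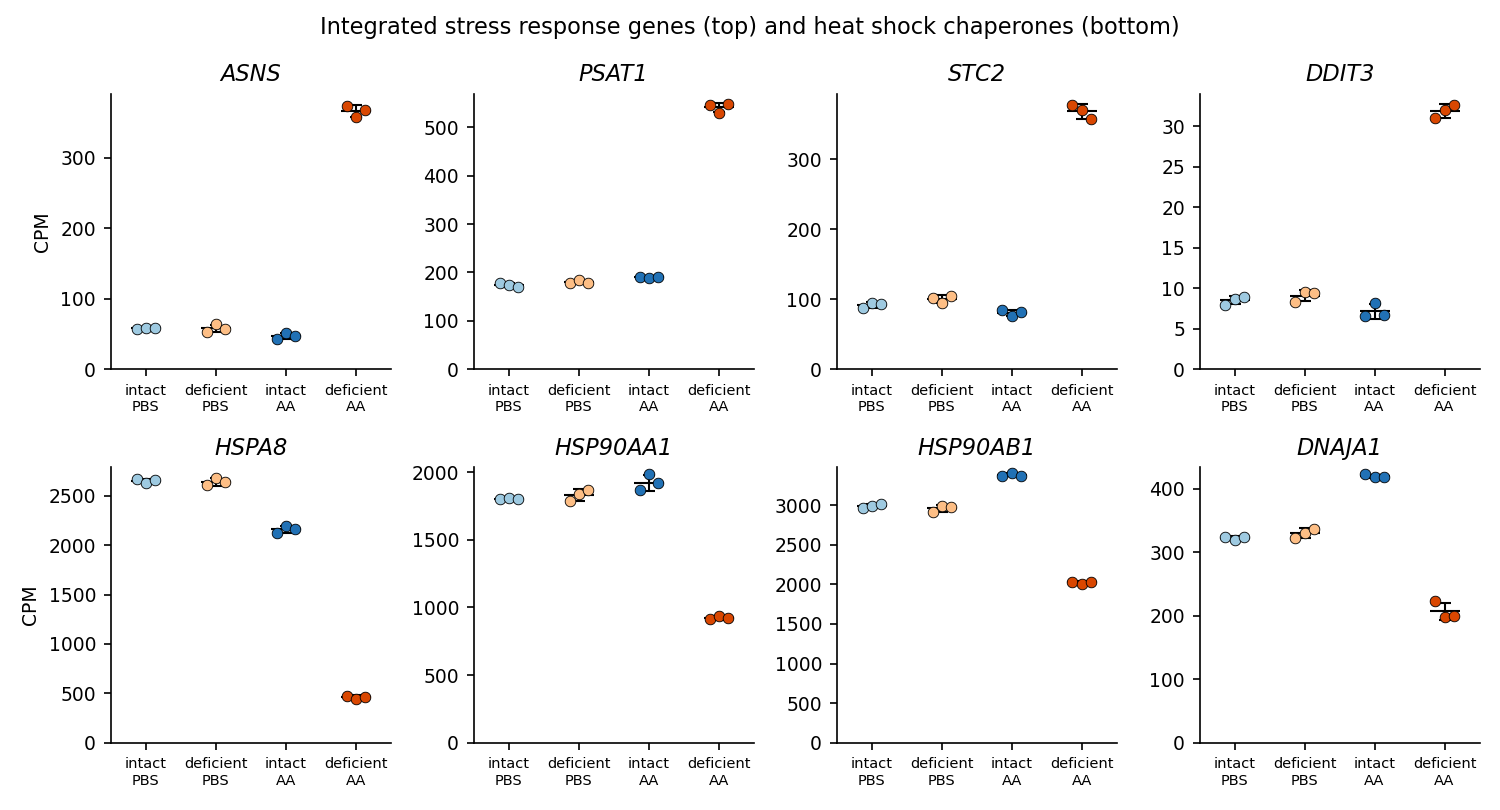
CPM in each library (points), with the mean and SD of 3 libraries (bars), for 4 genes of the integrated stress response and 4 heat shock chaperones in the 4 groups, on axes that start at 0. In the top row the deficient AA libraries lie above the other 3 groups (ASNS at 358 to 374 against 42.7 to 51.8 CPM in intact AA), and in the bottom row they lie below them (HSPA8 at 440.8 to 476.6 against 2127 to 2190 CPM).

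Most heat shock chaperones, cytosolic and mitochondrial, were lower in deficient cells. These proteins fold new and damaged proteins, and heat shock factor 1 raises them under proteotoxic stress. Of 21 tested members 18 were lower and 1 higher (median -0.68), 85.7% on the low side where 30.3% of all genes were. The difference departed from that under PBS in 19 members, beside 44.6% of all genes tested. The TRiC chaperonin, a separate cytosolic complex, had 3 of 8 members lower and 1 higher (median 0.05). HSPA8, the constitutive HSC70, was at 476.6, 440.8 and 467.4 CPM in deficient and 2127, 2190 and 2163 CPM in intact AA libraries. Its PBS means were 2640 and 2655 CPM, so the intact AA libraries also lay below the PBS level. The deficient AA mean was 4.68-fold below the intact AA mean (log2 -2.23, SE 0.0263, edgeR adjusted p = 4.85e-24). HSP90AA1, the inducible HSP90, was at 913.2, 939.5 and 921.0 against 1866, 1985 and 1917 CPM (log2 -1.06, SE 0.0251, edgeR adjusted p = 9.82e-19). HSP90AB1, its constitutive partner, differed by -0.74 and DNAJA1, a co-chaperone of HSPA8, by -1.02. HSPA1A differed by -1.57 (103.0 ± 3.07 against 305.9 ± 6.57 CPM, SD, n = 3 each) but is uncertain on its own, since HSPA1B is nearly the same sequence. The member on the high side was HSF1, the heat shock factor, at 65.0 ± 1.27 against 53.2 ± 2.76 CPM (SD, n = 3 each; log2 0.29, edgeR adjusted p = 0.000212).

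The start regions of HSPA8, HSP90AA1, HSPA1A and HSP90AB1 were searched in the same way for GAANNTTC, the core of the heat shock element, which reads the same on both strands. HSPA8 (chr11:123062087-123062386, minus strand) held it at positions -230 and -50 and HSPA1A (chr6:31815293-31815592, plus strand) at -106, and they are shown as the 2 with a match, which is in capitals.
HSPA8: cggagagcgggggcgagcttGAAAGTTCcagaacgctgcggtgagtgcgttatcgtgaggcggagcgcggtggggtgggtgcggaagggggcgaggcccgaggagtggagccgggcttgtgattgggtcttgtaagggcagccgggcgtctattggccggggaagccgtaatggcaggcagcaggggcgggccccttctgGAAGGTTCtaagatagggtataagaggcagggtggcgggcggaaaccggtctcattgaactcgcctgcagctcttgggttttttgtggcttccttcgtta
HSPA1A: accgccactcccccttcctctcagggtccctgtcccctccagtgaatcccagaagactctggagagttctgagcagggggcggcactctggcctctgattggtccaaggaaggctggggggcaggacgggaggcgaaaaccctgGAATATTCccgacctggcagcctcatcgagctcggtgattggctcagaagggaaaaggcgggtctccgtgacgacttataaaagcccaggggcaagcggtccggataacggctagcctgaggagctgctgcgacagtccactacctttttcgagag
It was in 8 of 19 promoters of the chaperone list that the table holds (42.1%), in 4.58% of promoters of the genes tested and in 2 of 33 of the integrated stress response list (6.06%). The chaperone list too was gathered by known function, and its share is no test of its expression.

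Genes of the endoplasmic reticulum and its unfolded protein response lay on both sides. Of 23 members 14 were lower and 6 higher (median -0.17). XBP1, the factor spliced when unfolded protein builds up, was at 291, 271 and 290 CPM in deficient and 163, 160 and 166 CPM in intact AA libraries (log2 0.80, SE 0.0346, edgeR adjusted p = 2.11e-14). ERN1, the sensor IRE1 that splices XBP1, was higher by 1.40. ATF6, another sensor, and HERPUD1, of ER-associated degradation, were also higher, by 0.54 and 0.52. Of the folding proteins PDIA4 (-0.49), CALR (-0.39), PDIA6 (-0.25), P4HB (-0.20) and HSP90B1 (-0.19) were lower, HYOU1 (0.15) and DNAJB11 (0.20) were higher, and CANX (0.01) and DNAJB9 (0.18) were not called. ERN1 and these last 4 were named after their values were seen. Of 31 proteasome subunits 19 were lower and 7 higher (median -0.18). PSMD3 of the regulatory particle was at 100.5, 103.0 and 108.5 against 195.5, 186.5 and 202.4 CPM (log2 -0.91, SE 0.0387, edgeR adjusted p = 1.66e-14), and PSMB2 of the core differed by -0.63. PSMD8, PSMD14 and PSMD7 were higher by 0.33, 0.19 and 0.17.

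Most transcripts of the mitochondrial genome and of glycolysis were lower in deficient cells. Nuclear genes of oxidative phosphorylation were closer to the background, with 17 of 40 lower, 6 higher and a median of -0.05. Of the 13 protein-coding genes of the mitochondrial genome 11 were lower and 1 higher (median -0.51), and together they held 2.59 ± 0.0481% of counts in deficient and 3.65 ± 0.0589% in intact AA libraries (SD, n = 3 each), beside 5.20% and 5.25% under PBS. MT-CO1, a core subunit of cytochrome c oxidase, was at 7442, 7380 and 7503 CPM against 12223, 11991 and 11802 CPM (log2 -0.69, SE 0.0181, edgeR adjusted p = 4.46e-18). MT-CYB, of complex III, differed by -0.78 and MT-ATP6, of ATP synthase, by -0.70. MT-ND6, the gene encoded on the light strand, was the member on the high side (122.1 ± 5.81 against 91.1 ± 3.37 CPM, SD, n = 3 each; log2 0.42). Counting is not stated to use strand, so reads of genes that overlap on opposite strands cannot be told apart.

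Glycolysis followed the same side, with 19 of 22 members lower, 2 higher and a median of -0.41. PGAM1, phosphoglycerate mutase, was at 373, 363 and 364 CPM in deficient and 621, 604 and 639 CPM in intact AA libraries (log2 -0.76, SE 0.0293, edgeR adjusted p = 2.62e-15). PKM, pyruvate kinase, was at 1999 ± 6.16 against 2963 ± 67.5 CPM (SD, n = 3 each), and LDHA, GPI and PGK1 differed by -0.41, -0.41 and -0.44. The intact AA means of these named lower members all lay above PBS. In deficient and intact cells the PBS means were 556.1 and 550.3 CPM for PGAM1 and 2204.7 and 2280.1 CPM for PKM, between the AA groups. For PGK1 they were 854.5 and 865.2 CPM, below even the deficient AA mean of 878.5 CPM. A lower value in deficient cells was therefore not always a fall from PBS. The glucose importer SLC2A1 was higher in deficient cells, at 234, 213 and 232 against 193, 175 and 181 CPM (log2 0.31, SE 0.0432, edgeR adjusted p = 2.69e-06), and both AA groups were above the PBS means of 120.6 and 119.6 CPM. Cholesterol synthesis and SREBP2 targets had 14 of 25 members lower and 4 higher (median -0.19), and that 4 ranged from 1 to 8 with the scaling or the libraries used. HMGCS1, the synthase before the rate-limiting step, was at 141, 135 and 142 against 283, 290 and 280 CPM (log2 -1.03, SE 0.0370, edgeR adjusted p = 9.34e-16), and both groups were below their PBS means of 463 and 434 CPM. INSIG1, which holds SREBP in the ER, differed by -0.76 and MSMO1, of late sterol synthesis, by -0.89.

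Genes of redox control were mixed, with more on the low side. NRF2, the factor that KEAP1 releases on oxidation, had 19 of 29 targets lower and 6 higher (median -0.22). AKR1C3, an aldo-keto reductase, was at 150, 154 and 151 CPM in deficient and 285, 289 and 315 CPM in intact AA libraries (log2 -0.97, SE 0.050, edgeR adjusted p = 4.37e-13). GSR, glutathione reductase, TKT, of the pentose phosphate pathway, and UGDH, which supplies glucuronic acid, differed by -0.50, -0.35 and -0.33. The PBS means of AKR1C3 were 134.3 CPM in deficient and 137.0 CPM in intact cells, below both AA groups. Those of GSR were 104.8 and 105.5 CPM, above its deficient AA mean of 76.7 CPM and near its intact AA mean of 108.9 CPM. HMOX1, the haem oxygenase that NRF2 and BACH1 control, was at 13.04, 10.6 and 12.5 against 22.1, 24.2 and 23.6 CPM (log2 -0.95, SE 0.0880, edgeR adjusted p = 5.99e-09). On the high side stood SLC7A11 (1.39) and ABCC3 (0.43), so the list as named did not move one way. Of 20 aldehyde dehydrogenases and aldo-keto reductases 11 were lower and 2 higher (median -0.31), a 2 that became 1 without any one of the AA libraries other than intact replicate 3, with ALDH1B1 at -0.88 and ALDH5A1 at -0.63.

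Antioxidant enzymes had 11 of 23 members lower and 7 higher (median -0.14). PRDX1, the main cytosolic peroxiredoxin, was at 727.1, 741.5 and 723.1 CPM in deficient and 1197, 1199 and 1256 CPM in intact AA libraries (log2 -0.74, SE 0.0255, edgeR adjusted p = 5.02e-16). SOD1 and PRDX3, which remove superoxide and mitochondrial peroxide, differed by -0.58 and -0.48, and their deficient AA means (126.5 and 306.4 CPM) were close to those under PBS (121.8 and 304.1 CPM in deficient cells). TXNRD2, the mitochondrial thioredoxin reductase, was higher at 80.6, 82.3 and 78.9 against 46.4, 46.4 and 48.5 CPM (log2 0.77, SE 0.0476, edgeR adjusted p = 7.6e-12), as were the glutaredoxins GLRX2 (0.70) and GLRX3 (0.36).

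Iron catalyses the oxidation of ascorbate, and carriers bring it into cells. Iron handling had 12 of 24 members lower and 5 higher (median -0.08), and 1 was called lower under PBS. The largest difference in the list, -5.34, was that of CP, which was scarcely expressed and was named after its values were seen. It was at 0.0160 CPM in deficient and 0.974 CPM in intact AA libraries, and at 0.0816 and 0.772 CPM under PBS. STEAP3, the ferrireductase of endosomes, was at 23.3, 23.4 and 24.9 CPM in deficient and 58.7, 54.8 and 58.8 CPM in intact AA libraries (log2 -1.27, SE 0.0562, edgeR adjusted p = 3.05e-14). FTH1, ferritin heavy chain, had the highest FPKM of all genes in both states and was higher in deficient cells at 13857 ± 131.7 against 12316 ± 326.5 CPM (SD, n = 3 each; log2 0.17, edgeR adjusted p = 7.54e-08). SLC39A14, an importer of iron and zinc, was higher by 0.55, and IREB2, a regulator of ferritin and transferrin receptor, lower by -0.42. Of 6 tested metallothionein and zinc genes 3 were higher, among them MT2A (0.39) and MT1E (0.32) of a family with close copies, and 2 lower. The 2 ranged from 1 to 3 with the scaling and was 1 without intact AA replicate 1 or deficient AA replicate 1 or 3. Of the 8 tested carriers of vitamin C and glucose 2 were higher and 4 lower, and on FPKM values 1 and 2 were. SLC5A3, an inositol carrier, differed by -0.81 (37.1 ± 0.876 against 65.0 ± 0.983 CPM, SD, n = 3 each). The ascorbate transporter SLC23A2 stood at 17.9 against 18.5 CPM and was not called (edgeR adjusted p = 0.667); it was named after its values were seen.

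The pyroptosis genes did not move as a group. Of 27 listed, 19 passed the filter, 6 were higher in deficient cells and 5 lower (median 0.00), shares of 31.6% and 26.3% beside 28.7% and 30.3% of all genes, and on FPKM values 2 were lower. TXNIP, which binds thioredoxin and can activate the NLRP3 inflammasome, was at 162, 176 and 179 CPM in deficient and 53.5, 58.5 and 59.2 CPM in intact AA libraries (log2 1.59, SE 0.0581, edgeR adjusted p = 1.14e-15). Its intact AA mean of 57.1 CPM was near the PBS means of 52.6 and 46.8 CPM. GSDME, a gasdermin of the pore-forming family, was at 127, 126 and 126 against 95.1, 100 and 103 CPM (log2 0.34, SE 0.0366, edgeR adjusted p = 5.25e-08), and its PBS means were 102.0 and 100.3 CPM. So the deficient AA libraries stood alone above the other 3 groups for both genes.

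Other members of the pyroptosis list had these values. CASP4, the sensor of cytosolic lipopolysaccharide, was at 153, 146.5 and 149 against 96.2, 96.6 and 94.5 CPM (log2 0.64, SE 0.0384, edgeR adjusted p = 4.71e-12). IL18, a cytokine that caspase-1 matures, was at 60.7, 59.1 and 67.8 against 35.2, 39.3 and 36.8 CPM (log2 0.75, SE 0.0678, edgeR adjusted p = 3.69e-09). Both AA groups exceeded the PBS means of these 2 genes, 79.1 and 76.4 CPM for CASP4 and 30.4 and 27.4 CPM for IL18. IL1A, an alarmin, was low throughout, at 3.20 ± 0.447 against 0.721 ± 0.0868 CPM (SD, n = 3 each; log2 2.14). DPP9, which holds the CARD8 and NLRP1 sensors in check, was lower at 67.2, 63.5 and 65.0 against 84.5, 90.7 and 88.5 CPM (log2 -0.43, SE 0.0421, edgeR adjusted p = 1.36e-08). CASP1, the canonical inflammatory caspase, was lower by -0.32, and NINJ1, which ruptures the membrane at the end of pyroptosis, was higher by 0.29. GSDMD, the gasdermin that inflammatory caspases cleave, was below the filter at a mean of 0.208 against 0.289 CPM, and NLRP3 at 0.0175 CPM in deficient cells, with none counted in intact cells.

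The wider death machinery was also mixed, with 13 of 29 members of the BCL2 family, caspases and death receptors higher and 8 lower (median 0.04), or 4 to 5 lower on FPKM values. PMAIP1, the BH3-only protein NOXA, was at 33.7, 33.9 and 34.6 CPM in deficient and 16.07, 15.4 and 14.9 CPM in intact AA libraries (log2 1.14, SE 0.0782, edgeR adjusted p = 4.88e-11). TNFRSF10B, the TRAIL receptor DR5, was at 216, 214 and 211 against 118, 125 and 121 CPM (log2 0.82, SE 0.0344, edgeR adjusted p = 1.32e-14). Pro-survival BCL2L1 was higher too, by 0.77, whereas APAF1, the scaffold of the apoptosome, was lower by -0.96.

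**Figure D4:**
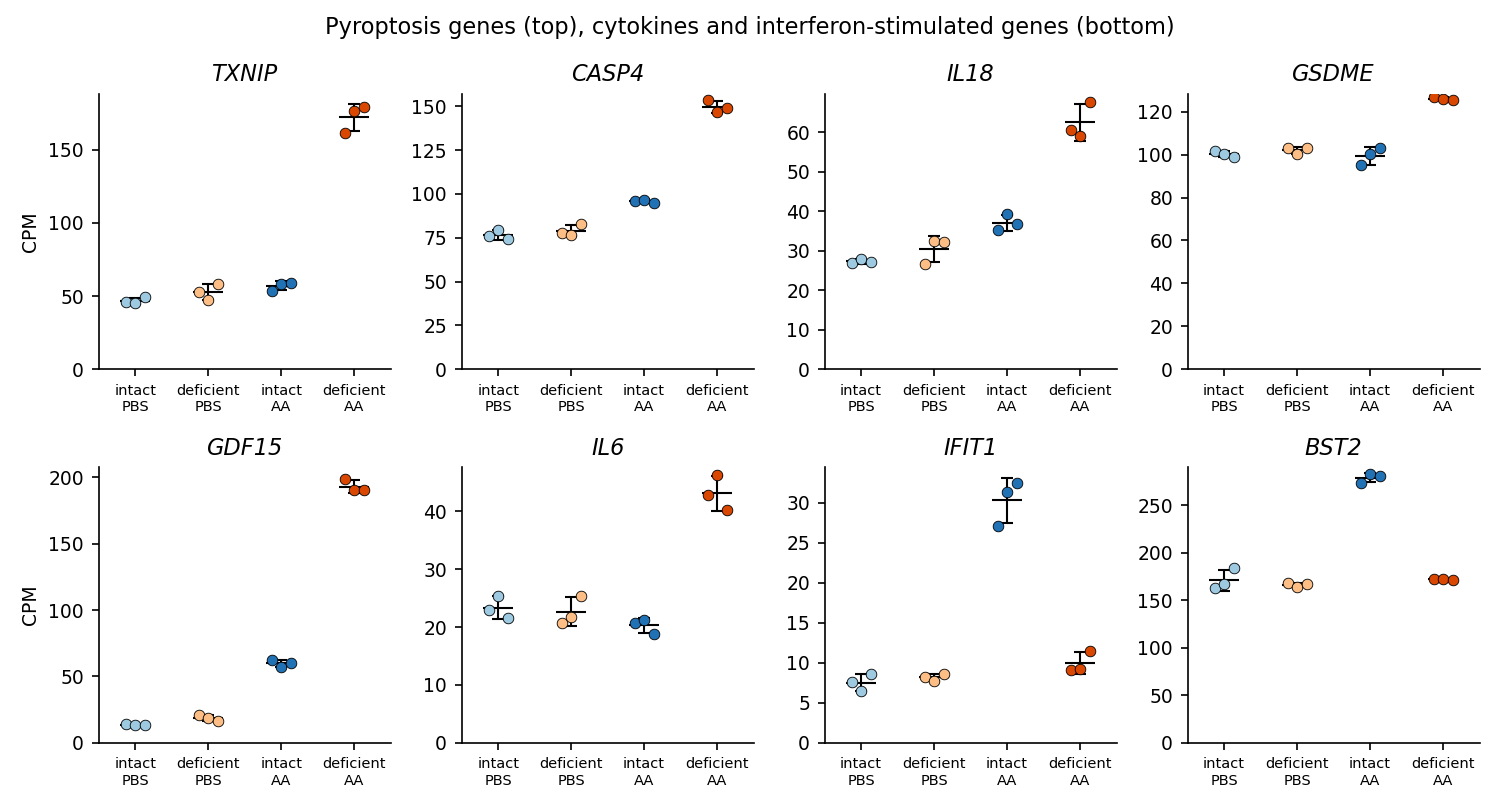
CPM in each library (points), with the mean and SD of 3 libraries (bars), for 4 pyroptosis genes, 2 cytokines and 2 interferon-stimulated genes in the 4 groups, on axes that start at 0. The deficient AA libraries are highest for TXNIP (162 to 179 CPM) and GDF15 (190.2 to 198.5 CPM), and the intact AA libraries are highest for IFIT1 (27.1 to 32.5 CPM).

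Inflammatory genes lay on 2 sides. NF-kB subunits and targets had 23 of 28 members higher in deficient cells and 3 lower (median 0.54). NFKB2, the precursor of p52, was at 195, 186.5 and 191 CPM in deficient and 94.7, 89.6 and 91.9 CPM in intact AA libraries (log2 1.05, SE 0.0377, edgeR adjusted p = 8.87e-16). The PBS means were 221.6 and 228.7 CPM, so the intact AA libraries were the ones far from PBS. RELB, the partner of p52, was at 16.9 ± 2.48 against 6.37 ± 0.377 CPM (SD, n = 3 each), beside 30.5 and 34.2 CPM under PBS. BIRC3, an NF-kB-induced inhibitor of apoptosis, and NFKB1 were higher by 0.72 and 0.65 and lay below PBS in both AA groups.

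Cytokines, chemokines and growth factors had 18 of 27 members higher and 4 lower (median 0.83). GDF15, a stress-induced hormone, was at 198.5, 190.2 and 190.5 CPM against 62.4, 57.0 and 60.2 CPM (log2 1.69, SE 0.0486, edgeR adjusted p = 2.36e-17). It was the member also called under PBS, at 18.6 ± 2.18 against 13.3 ± 0.418 CPM (SD, n = 3 each; log2 0.49, edgeR adjusted p = 0.0101), and the difference under AA exceeded that one by 1.20 (edgeR adjusted p = 1.58e-09). FGF2 and VEGFA, which drive vessel growth, differed by 1.15 and 1.19, IL6 by 1.09 and AREG, a ligand of the EGF receptor, by 2.15. The monocyte attractant CCL2 was lower, at 3.12, 2.52 and 3.09 against 8.45, 7.73 and 7.55 CPM (log2 -1.44, SE 0.182, edgeR adjusted p = 6.48e-07).

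Interferon-stimulated genes were lower in deficient cells in 16 of 31 cases and higher in 4 (median -0.33), or higher in 2 without intact AA replicate 1. IFIT1, which binds foreign RNA caps, was at 9.11, 9.25 and 11.5 CPM against 27.1, 31.4 and 32.5 CPM (log2 -1.61, SE 0.104, edgeR adjusted p = 1.86e-11), and its deficient AA libraries stayed near the PBS mean of 8.18 CPM. SAMD9 and OAS3, which restrict viruses, differed by -1.28 and -0.75 and lay below PBS in deficient cells. BST2, or tetherin, was at 172, 173 and 172 against 273, 283 and 280 CPM (log2 -0.70, SE 0.0368, edgeR adjusted p = 6.06e-13). IFI35 and IRF7 were on the high side, by 0.51 and 0.65. MHC class I and antigen processing had 8 of 16 members higher and 5 lower (median 0.10). TAP1, the peptide pump, was higher by 0.50 and HLA-B, whose reads close copies share, by 0.29. TAPBP, tapasin, and NLRC5, the activator of class I genes, were lower by -0.37 and -0.58.

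Targets and brakes of the ERK pathway were higher in deficient cells in 13 of 14 cases (median 0.84), and the remaining member, CCND1, was not called (log2 0.04, edgeR adjusted p = 0.615). PHLDA1, an ERK-induced gene, was at 99.0, 99.4 and 102 CPM in deficient and 25.2, 27.4 and 27.1 CPM in intact AA libraries (log2 1.92, SE 0.0626, edgeR adjusted p = 1.78e-16). ETV5 and ETV4, ETS factors that ERK raises, were at 30.4 ± 1.21 against 6.10 ± 1.14 CPM and 40.1 ± 1.87 against 14.3 ± 1.55 CPM (SD, n = 3 each). DUSP4, a nuclear MAP kinase phosphatase, and EPHA2, a receptor kinase, differed by 0.86 and 0.64. Immediate early genes, which the same pathway and others start, were split, with 15 of 34 higher and 13 lower (median 0.16). KLF10, ATF3, FOSL1 and DUSP5 were higher by 0.93, 0.89, 0.86 and 0.72. ARC, which is scarcely expressed under PBS, was at 21.6, 24.4 and 23.7 against 46.4, 57.1 and 53.1 CPM (log2 -1.17, SE 0.0824, edgeR adjusted p = 7.47e-11), and the matricellular genes CCN2 and CCN1 were lower by -0.66 and -0.48.

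Genes tied to LKB1 signalling showed no common side. CREB-CRTC targets, which salt-inducible kinases downstream of LKB1 restrain, had 6 of 20 members higher and 8 lower (median -0.03, or -0.06 to 0.02 over the alternatives), and 4 to 5 lower on FPKM values. PPARGC1A, a coactivator of mitochondrial genes, was at 23.1, 24.1 and 24.4 CPM in deficient and 15.9, 16.0 and 12.9 CPM in intact AA libraries (log2 0.68, SE 0.0837, edgeR adjusted p = 4.2e-07). FOS was lower, at 46.3, 53.4 and 53.5 against 87.7, 83.8 and 91.4 CPM (log2 -0.78, SE 0.0621, edgeR adjusted p = 5.03e-10), and so was NR4A2, by -0.55. Of 23 tested genes of LKB1, its partners, AMPK subunits and AMPK-related kinases 7 were higher, 3 lower and 13 not called. The 3 ranged from 1 to 4 with the scaling or the libraries used and was 1 without deficient AA replicate 3. STK11 was the 1 member with a difference of at least 1, and the highest difference in the list was 0.73. Named members on the high side were SNRK (0.50), the AMPK subunits PRKAB1 (0.50) and PRKAG1 (0.24), MARK3 (0.31) and CAB39 (0.28), the scaffold that binds LKB1. Those on the low side were STK11, SIK3 and BRSK2.

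Genes of the cell cycle lay on both sides. Of 36 genes of G2 and mitosis 24 were higher in deficient cells and 5 lower (median 0.18). NDC80, of the kinetochore, was at 178, 180 and 180 CPM against 100, 106 and 102 CPM (log2 0.80, SE 0.0426, edgeR adjusted p = 6.96e-13), and TPX2 and HMMR, of the spindle, differed by 0.40 and 0.47. KIF20A, needed for cytokinesis, was lower at 71.8, 70.9 and 77.2 against 144, 140 and 143 CPM (log2 -0.95, SE 0.0420, edgeR adjusted p = 2.74e-14), as was MKI67, by -0.20. Of 40 genes of DNA replication and S phase 21 were lower and 9 higher (median -0.10). MCM5, of the replicative helicase, and ORC1, of the origin complex, differed by -0.76 and -0.82 and PCNA by -0.30, while the clamp loader genes RFC2 and RFC4 were higher by 0.56 and 0.30. Of 15 tested histone genes 9 were higher and 6 not called (median 0.43). H2AC6 differed by 1.76, but core histone genes share reads with close copies and are partly lost by poly(A) selection.

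**Figure D5:**
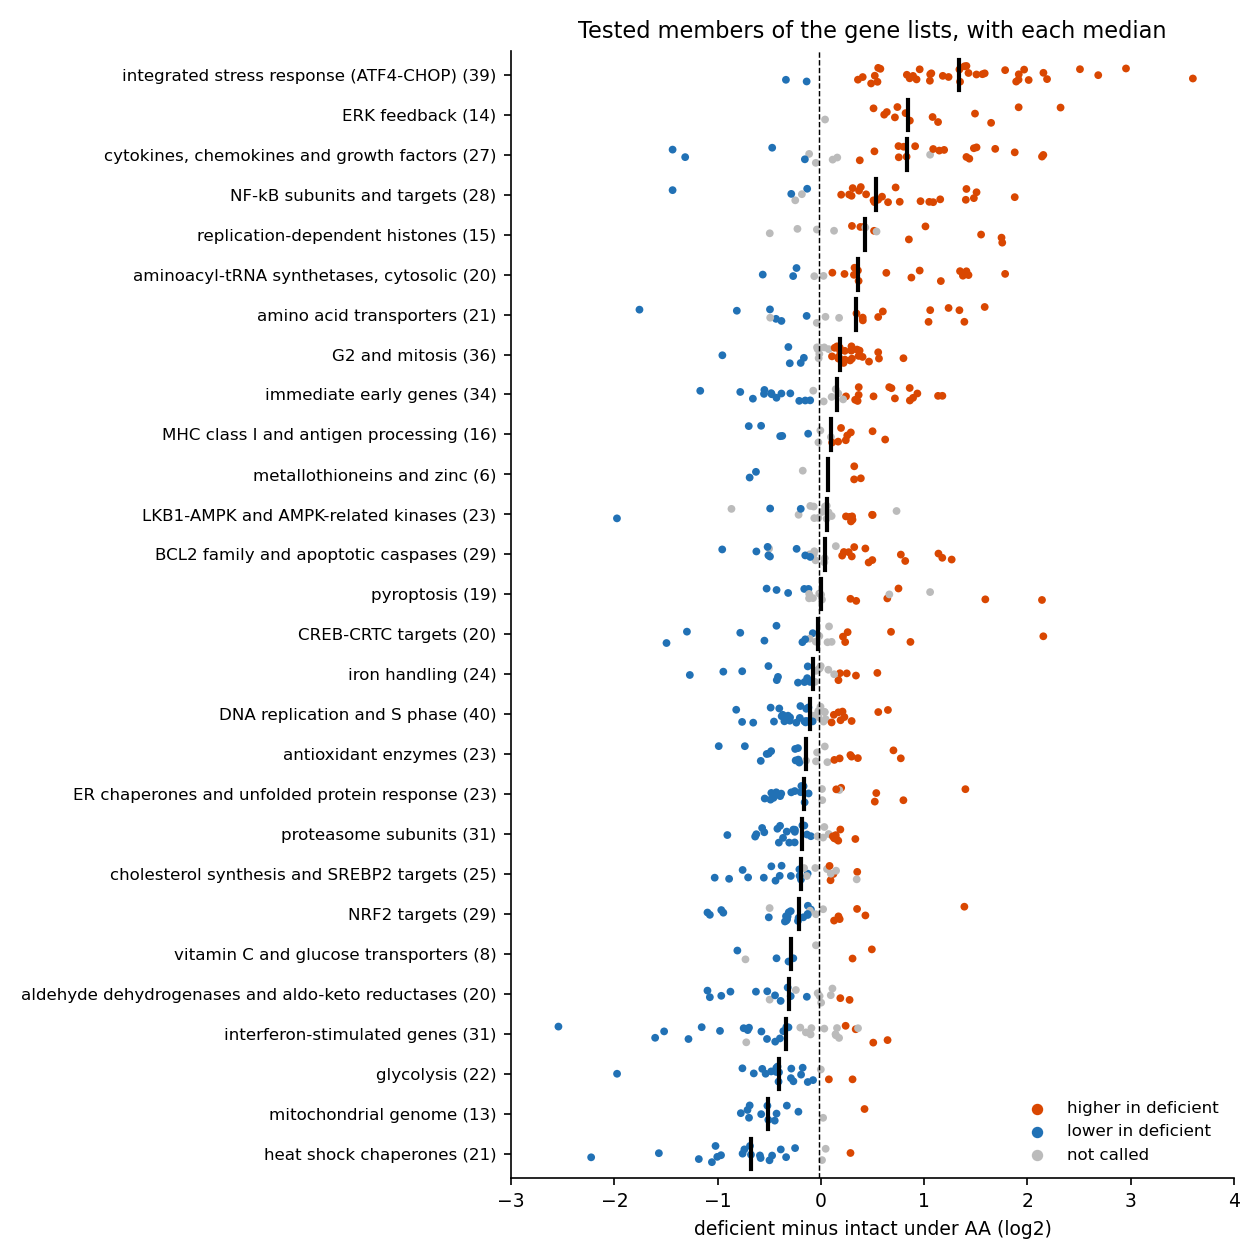
Deficient minus intact log2 difference under AA of each tested member of 28 gene lists, with the number tested in brackets, the list median as a bar and the median of all genes as a dashed line. The integrated stress response lies highest (median 1.34) and the heat shock chaperones lowest (median -0.68), and 1 member below -3 is not drawn.

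Among the 10 highest and 10 lowest genes by log2 difference, limited to called genes without overlap whose log2 CPM averaged 3 or more, several belong to no list above. On the high side LMO4, a LIM-only transcription cofactor, was at 20.1, 20.4 and 20.6 CPM in deficient and 3.76, 3.89 and 3.52 CPM in intact AA libraries (log2 2.45, SE 0.142, edgeR adjusted p = 3.02e-12). SERPINE2, an inhibitor of thrombin and plasminogen activators, differed by 2.30, CLDN1, of tight junctions, by 2.13, JAG1, a Notch ligand, by 2.08 and IGFBP1, a secreted binder of insulin-like growth factors, by 2.04. CLDN1 was at 151.1 ± 4.20 against 34.6 ± 4.79 CPM (SD, n = 3 each) and lay above its PBS means of 72.7 and 67.7 CPM in deficient cells and below them in intact cells. On the low side APOL1, a lipoprotein that forms ion channels, was at 18.4, 19.5 and 20.8 against 93.8, 84.0 and 92.2 CPM (log2 -2.20, SE 0.0657, edgeR adjusted p = 4.35e-17). Its PBS means of 58.1 and 60.5 CPM lay between the AA groups. OLFML1, a secreted olfactomedin-like protein, differed by -1.69, FBXO9, a ubiquitin ligase subunit, by -1.64, NES, the intermediate filament nestin, by -1.61, VAV3, a guanine nucleotide exchange factor, by -1.54 and NT5DC2 by -1.51.

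IGFBP3, a secreted binder of insulin-like growth factors, was lower in deficient cells under PBS (log2 -0.28, edgeR adjusted p = 0.00475) and higher under AA (log2 0.41, edgeR adjusted p = 2.07e-08). KRT80, a keratin, also changed side, from -0.17 to 0.41. By FPKM, which allows genes to be ranked by level per length, the highest in deficient cells were FTH1, MT-CO1, GAPDH, MT-CO2 and EEF1A1, at 18765, 4972, 4770, 4732 and 4461 FPKM. In intact cells they were FTH1, MT-CO1, MT-CO2, MT-ND4 and GAPDH, at 15611, 7713, 6516, 5310 and 5239 FPKM.

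Markers of the line and of other cells were measured as well. Of 18 markers of A549 and lung adenocarcinoma 9 passed the filter, among them the epithelial keratins KRT7, KRT8 and KRT18 at 779.6, 771.2 and 1001 CPM in deficient AA libraries. The surfactant gene SFTPC and the lung factor NKX2-1 were below it in all groups. Of the 9 tested, 3 were higher in deficient cells, 4 lower and 2 not called (median -0.05). The summed level of the 18 markers was 2790 to 2892 CPM in deficient and 4147 to 4294 CPM in intact AA libraries. Most of the gap between these sums lay in KRT8 alone, so it does not describe the markers as a set. KRT8, which like the other keratins was named after its values were seen, was at 754.1, 783.2 and 776.3 against 1910, 1917 and 2014 CPM (log2 -1.34, SE 0.0304, edgeR adjusted p = 5.41e-19). Of 16 leukocyte, endothelial and fibroblast markers 4 passed the filter. Their summed level was 115.7 to 125.1 CPM in deficient and 128.7 to 132.3 CPM in intact AA libraries, and 12.7 to 14.5 against 21.6 to 22.4 CPM without CD68, a lysosomal protein that other cells also make. CD3E and COL1A2 had no count in any library and PTPRC averaged 0.0175 CPM in deficient and none in intact AA libraries. Of the 4, CDH5, at 1.04 against 3.71 CPM, PDGFRB and COL1A1 were lower in deficient cells, and the part of other cells in any result was not tested.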

How the data were processed

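Poly(A) RNA of 12 A549 samples was sequenced, 3 libraries for each genotype and treatment. The authors deposited estimated counts and FPKM values per gene. Per the submitters' processing notes RSEM, HISAT2 (2.1.0), StringTie (1.3.1), Bowtie2 (2.2.8) and fastp (0.18.0) were used. Their roles, the genome build and the strandedness are not given in the labels or headers. Estimated counts (10.9 to 11.5% of values held a fraction) were rounded to whole numbers. Genes were filtered with edgeR's filterByExpr (minimum count 10), scaled by TMM and tested with the quasi-likelihood test of edgeR 4.0.16 in R 4.3.3 over all 12 libraries in 4 groups, with Benjamini-Hochberg adjustment over all 12718 genes tested. The fit was tested on simulated data, where it recovered 48%, 78% and 94% of genes changed by 0.25, 0.5 and 1 under AA, and 18%, 62% and 92% of such departures from PBS. Of 170 calls under AA 10 were false, and of 146 for the departures 11 were. The simulation changed 50 genes at each size among 12587, drawn from genes with more counts. Far more genes were called in the data, so these shares need not hold there.

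Alternatives used DESeq2 1.42.0, limma 3.58.1 on log2(FPKM + 1) or log2(FPKM + 0.1), other scalings and filters, and each library left out. A further alternative removed the smoothed trend of the log2 differences with exon length and gave no p-values. Same-numbered AA libraries had deviations correlated at -0.05 to -0.02, so the numbers were not taken as pairs. Of the identifiers, 20171 were found in GENCODE 29 and 564 had no symbol of their own. Start regions came from RefSeq.

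The members and lists were chosen with earlier results of these data known. Genes were named by rule: STK11, the 10 highest and 10 lowest called genes, genes of opposite sign under PBS, the 5 most abundant by FPKM, and from each described list up to 5 called members of smallest p in the direction of most calls and 3 in the other. A list was described where the share called to 1 side was at least 1.5 times the background, or where the study's theme asked for it. All tested pyroptosis genes and other-cell markers could be named.

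A few of these are not reported here.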

Additional observations from a re-analysis of the deposited data

Results flagged for a closer look

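The genotype difference under AA departed from that under PBS, by edgeR's test of the interaction with Benjamini-Hochberg adjustment, in 5673 genes. The values that follow are the log2 difference under AA minus that under PBS. Among the genes highest in deficient cells it was 2.968 for ASNS, 2.779 for SESN2, 2.166 for SERPINE2, 2.154 for IGFBP1, 2.072 for DDIT3, 2.064 for STC2, 2.026 for CLDN1, 2.014 for LMO4, 1.96 for ETV5 and 1.811 for JAG1. Among the lowest it was -2.218 for HSPA8, -2.145 for APOL1, -1.8 for FBXO9, -1.727 for IFIT1, -1.565 for NES, -1.563 for HSPA1A, -1.523 for both OLFML1 and VAV3, and -1.444 for NT5DC2. For the genes on opposite sides under the treatments it was 0.6852 for IGFBP3 and 0.5818 for KRT80. Of the 187 list members named by the rule, 173 had a called departure, beside 73.1% of all genes called under AA; the rule took members of small p under AA, so this count is no support for them. Groups of 3 libraries are too small for an outlier test, and none was run.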

How the results depend on the processing

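None of the values of the 214 named genes reversed under the alternatives run, and other called genes were not checked one by one, but the list medians of pyroptosis (-0.07 to 0.08) and CREB-CRTC targets (-0.06 to 0.02) changed sign. Tested against a difference of 0.5 with edgeR's glmTreat, 1130 genes were called under AA, 560 higher and 570 lower. With limma on log2(FPKM + 1), log2(FPKM + 0.1) and log2(FPKM + 1) without a filter, 2456, 2462 and 2548 genes were lower, and 193, 376 and 193 differed by at least 1, against 377 with a minimum count of 50. Under PBS DESeq2 called 54 genes (12 higher), the fit without a filter 111 (34 higher, 77 lower), and the 3 FPKM fits 5, 5 and 4 (2, 2 and 1 higher, 3 lower each). The share of AA calls higher in deficient cells was 57.5% scaled by library size only and 45.1% by upper quartile.

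Leaving out 1 library in turn gave 6876 to 7580 calls under AA, 3352 to 3735 higher, 3524 to 3877 lower and 579 to 628 of at least 1, and 5242 to 5532 departures from PBS. Under PBS it gave 6 to 43 calls, 0 to 10 higher and 6 to 33 lower, with 9, 6 and 15 without intact PBS replicates 1, 2 and 3, and 6 and 14 without deficient PBS replicates 1 and 3. The cause of these changes was not tested.

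With the replicate number as a replicate block, 7402 genes were called under AA, 32 under PBS and 5554 for the departure. Of 5778 values for named genes, 5570 kept the result of the main fit and 208 no longer passed the threshold. Many of the 208 came from the test against 0.5, which asks for more by construction. Where the trend with exon length was removed there was no p-value, and only the sign was compared. Without the test against 0.5, 19 genes lost a call in at least 1 alternative, of which ATF5 is described above. Genes near the count filter have the least depth behind them.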

Other observations

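Targets of the hypoxia-inducible factors, which were singled out after their values were seen, lay on both sides, with 6 of 26 higher, 10 lower and 10 not called (median 0.04), shares near those of all genes. VEGFA and the lipid droplet gene PLIN2 were higher in deficient AA cells by 1.19 and 0.62. NDRG1, a stress-induced gene, was lower by -1.24 (85.2 against 201 CPM), beside 68.9 and 69.5 CPM under PBS. The carbonic anhydrase CA12 was lower by -1.32 (32.9 against 82.05 CPM).

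The epidermal genes KRT1 and DSG1 rested on 1 library: KRT1 was at 3.36, 0 and 0.0524 CPM and DSG1 at 2.35, 0.0548 and 0.0524 CPM in the 3 deficient AA libraries.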
